A study of Mus musculus with 9 samples.

Results

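Reactive astrocyte genes are sorted in the field into 3 subclasses, pan-reactive, A1 and A2, and 30 of them were followed in the hippocampus of Nestin;BrafKE/+ mice. The members were taken by gene symbol, 11 pan-reactive genes from Lcn2 to Aspg, 8 A1 genes from Serping1 to Amigo2 and 11 A2 genes from Clcf1 to Stat3. Of the 30, 26 were among the 18275 genes of the deposited table. Lcn2, Timp1, Tgm1 and Slc10a6 had no row. The smallest value of a library ran from 0.9934 to 1.004, so every row had counts in every library. A gene that lacked counts in some library would thus have no row. Whether this is why these genes are missing is unknown. Cxcl10, with a mean of 6.22 normalised counts, lay below the minimum mean of 10 that was set for testing, so 25 members were tested with 16196 genes in all.

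RNA-Seq libraries were made from the hippocampus of 4 adult Nestin;BrafKE/+ mice and 5 adult Braf+/+ mice, with 1 library per male animal on the C57BL/6N strain. The mutants are heterozygous for a Cre-dependent knockin allele that encodes BRAF K499E, a RASopathy variant of the kinase that activates MEK and ERK. Nestin-Cre switches the allele on in neural stem cells, so neurons, astrocytes and oligodendrocytes carry it together, and the Braf+/+ group were littermates without the allele. No drug or other agent is named for either group. Whether the controls carried Nestin-Cre is not given in the sources used here. By their names in the labels the libraries form 3 series, here A, B and C. Series A holds mutant replicate 1 and control replicates 1 to 3, series B mutant replicates 2 and 3 and control replicate 4, and series C mutant replicate 4 and control replicate 5.

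Astrocytes answer injury, inflammation and disease by changing their shape and their transcripts, a response called reactive astrogliosis. Pan-reactive genes are induced by most insults. A1 genes are known from inflammation, in which microglia release interleukin-1 alpha, tumour necrosis factor and complement C1q, and many of them respond to interferon. A2 genes are known from ischemia and include cytokines and enzymes linked to repair and to signalling through STAT3.

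The totals of the 9 libraries ran from 19550000 to 20090000 normalised counts. These values were adjusted by the authors for batches, so the number of reads behind a value is unknown. Braf itself was 2264 ± 144 (SD, n = 4) in mutants and 2786 ± 153 (SD, n = 5) in controls, and limma put the difference at -0.30 on the log2 scale, with an SE of 0.07 and an adjusted p of 0.0378. With single libraries left out the Braf call held in 2 of 9 fits (highest adjusted p 0.203), and with the level of choroid plexus genes as a covariate, added after seeing the data, its adjusted p was 0.0774. The 10 hippocampal neuron markers, from Prox1 to Spink8, were all above the minimum mean. Of the marker lists, levels varied most for choroid plexus, a tissue that lies beside the hippocampus. The 10 genes of that list, from Ttr to Prlr, summed to between 5000 and 39207 in mutants and between 14735 and 428092 in controls, with control replicate 2 the highest, and 0 of the 10 passed the test, with an unadjusted p under 0.05 for 3. The lowest p was that of Kl (log2 fold change -1.44, adjusted p = 0.109). The list's median was -1.44, and 10 of 10 were lower in mutants.

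None of the 25 members tested passed the threshold (0 of 25 by limma), in any subclass. A log2 fold change here is the mutant mean less the control mean on log2(value + 1), adjusted for series, and the threshold is a Benjamini-Hochberg adjusted p of 0.05 over all genes tested with limma. Of all genes tested, 2.88% passed, 1.52% higher and 1.36% lower in mutants, and the adjusted p of the 25 members ran from 0.0571 for Stat3 to 0.952 for Clcf1. An unadjusted p under 0.05 was found for 5 members (20%), which were Osmr, Cp and Aspg on the higher side and Stat3 and Cd109 on the lower side, against 18.5% of all genes tested (8.86% higher and 9.61% lower). The groups did not overlap in 4 members (16%), against 15.7% of all genes (7.62% higher and 8.13% lower). These were Osmr, Aspg and B3gnt5, higher in every mutant library, and Stat3, lower in every mutant library. Both shares lay close to the background, so they are no result about the members. Without the series term, 3 members passed, Osmr (adjusted p = 0.00769), Aspg (0.0192) and Stat3 (0.00513), among 2260 genes in all.

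By sign alone, 15 of the 25 members had a higher and 10 a lower mean in mutants, where 50.1% of all genes were higher. The median log2 fold change was 0.29 for the 8 pan-reactive genes tested, 0.23 for the 8 A1 genes and 0.10 for the 9 A2 genes, against 0 for all genes. Without mutant replicate 1 the medians were 0.05 for pan-reactive, 0.05 for A1 and 0.44 for A2 genes. That replicate is the only mutant of series A, so leaving it out also takes the comparison within series A away, and both cannot be told apart. The same sign was found within all 3 series for 13 of the 25 members, 8 of them higher and 5 lower, against 36.6% of all genes tested.

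**Figure D1:**
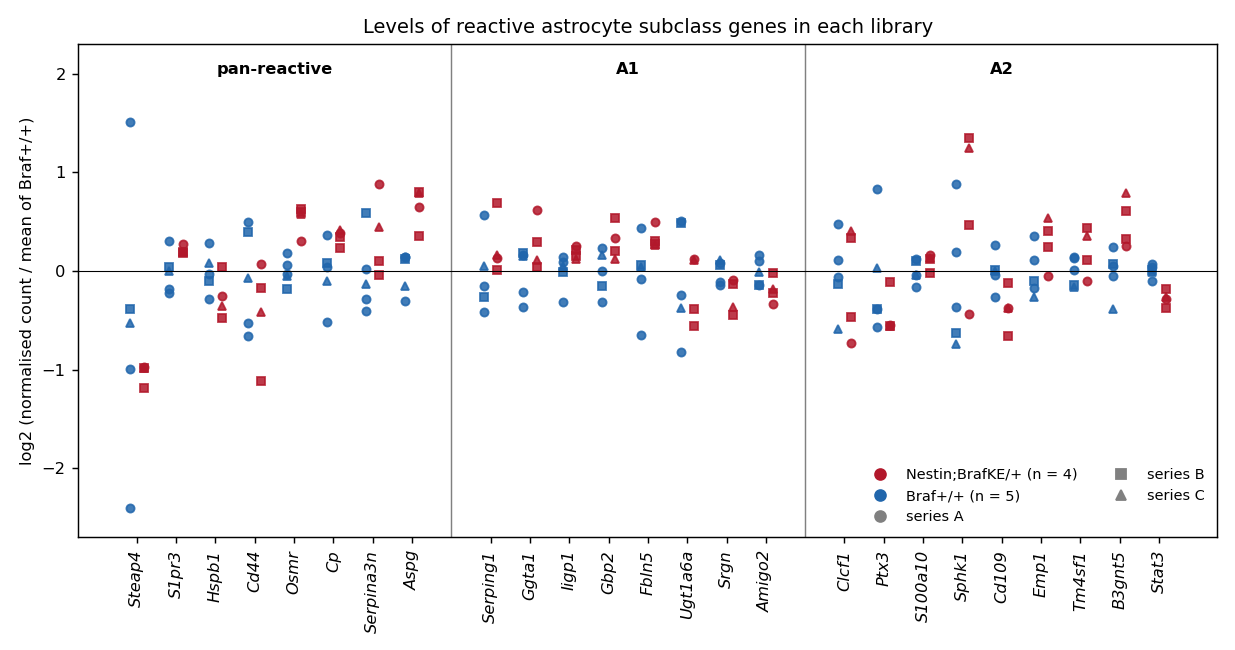
Each point is 1 library, plotted as the log2 ratio of its normalised count to the mean of the 5 Braf+/+ libraries, for the 25 members tested in order of subclass; red marks the 4 Nestin;BrafKE/+ libraries, blue the Braf+/+ libraries, and the shape of a point its series. Red points clear all blue points upward for Osmr, Aspg and B3gnt5 and downward for Stat3, and the colours mix in the other members.

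Among pan-reactive genes, the receptor for oncostatin M had the lowest p. Osmr (ENSMUSG00000022146, chromosome 15, 6843053 to 6904450, minus strand, GRCm39) encodes the subunit that pairs with gp130 to receive this cytokine of the interleukin-6 family. Its normalised counts were 128, 160, 156 and 154 in mutant replicates 1 to 4 and 117, 108, 101, 91.4 and 100 in control replicates 1 to 5. Every mutant library was above every control, and the nearest pair was mutant replicate 1 and control replicate 1, both of series A. The log2 fold change was 0.52 (SE 0.14, 95% interval 0.21 to 0.83), with an unadjusted p of 0.00348 and an adjusted p of 0.0771 by limma. Series A, B and C gave differences of 0.23, 0.78 and 0.61. A two-sided exact permutation test gave p = 0.00794 when all libraries were permuted and p = 0.0417 when they were permuted inside series, and neither scheme can give a smaller p.

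Aspg and Cp followed in the same direction. Aspg (ENSMUSG00000037686, chromosome 12, 112073076 to 112094007, plus strand), which encodes an asparaginase, had normalised counts of 52.2, 42.7, 57.9 and 57.8 in mutants and 36.8, 27, 36.8, 36.2 and 30 in controls. The lowest mutant, replicate 2, was above the highest controls, and the log2 fold change was 0.65 (SE 0.21, 95% interval 0.18 to 1.12, adjusted p = 0.139). It was 0.64, 0.45 and 0.92 in series A, B and C, and the exact permutation p was 0.00794 for all libraries, the smallest possible, and 0.0833 inside series. The microRNA gene Mir3073a lies inside Aspg on the same strand. Cp encodes ceruloplasmin, a copper-carrying ferroxidase, and its counts were 409, 368, 399 and 419 in mutants and 323, 403, 219, 333 and 293 in controls. Only control replicate 2 reached the mutant range, and it was the library with the most choroid plexus RNA. The log2 fold change of Cp was 0.37 (SE 0.16, 95% interval 0.01 to 0.73, adjusted p = 0.261), and with the choroid plexus covariate it was 0.53 (adjusted p = 0.0907). Series A, B and C gave 0.42, 0.20 and 0.51, and the exact permutation p was 0.0476 for all libraries and 0.167 inside series.

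Serpina3n, a secreted inhibitor of serine proteases and a widely used mark of reactive astrocytes, had the highest counts of the pan-reactive members and did not separate the genotypes. It measured 1982, 1043, 1152 and 1457 in mutants and 1088, 880, 810, 1615 and 976 in controls. The highest mutant was replicate 1, the second highest library was control replicate 4, and the groups overlapped. The log2 fold change was 0.39 (SE 0.24), with an adjusted p of 0.420, and series A, B and C gave 1.11, -0.56 and 0.58. Control replicate 4 is the only control of series B, as mutant replicate 1 is the only mutant of series A. Without it the value was 0.90 (adjusted p = 0.0294), and without mutant replicate 1 it was -0.07 (adjusted p = 0.909). The direction and the call of Serpina3n therefore changed with these libraries or their series.

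S1pr3, a receptor for sphingosine 1-phosphate, measured 212, 201, 200 and 201 in mutants and 150, 217, 155, 181 and 176 in controls, with control replicate 2 above all mutants. limma put S1pr3 at 0.22 on the log2 scale (SE 0.13, adjusted p = 0.424). The other 3 pan-reactive genes tested had lower means in mutants, with intervals that included 0. Steap4, a metalloreductase, was 7.74 ± 0.523 (SD, n = 4) against 15.8 ± 16.7 (SD, n = 5), a spread made by 45 in control replicate 2, and its log2 fold change of -0.48 (SE 0.64) became 0.18 with the choroid plexus covariate. Cd44, the hyaluronan receptor, was 67.9 ± 21.4 against 86.4 ± 30.6 (log2 fold change -0.33, SE 0.33). Hspb1, the small heat shock protein HSP27, was 95.8 ± 15.3 against 114 ± 16.7 (log2 fold change -0.25, SE 0.17), with the same sign in the 3 series. The untested chemokine Cxcl10 ranged from 1.99 to 12 in mutants and from 1.99 to 10 in controls.

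**Figure D2:**
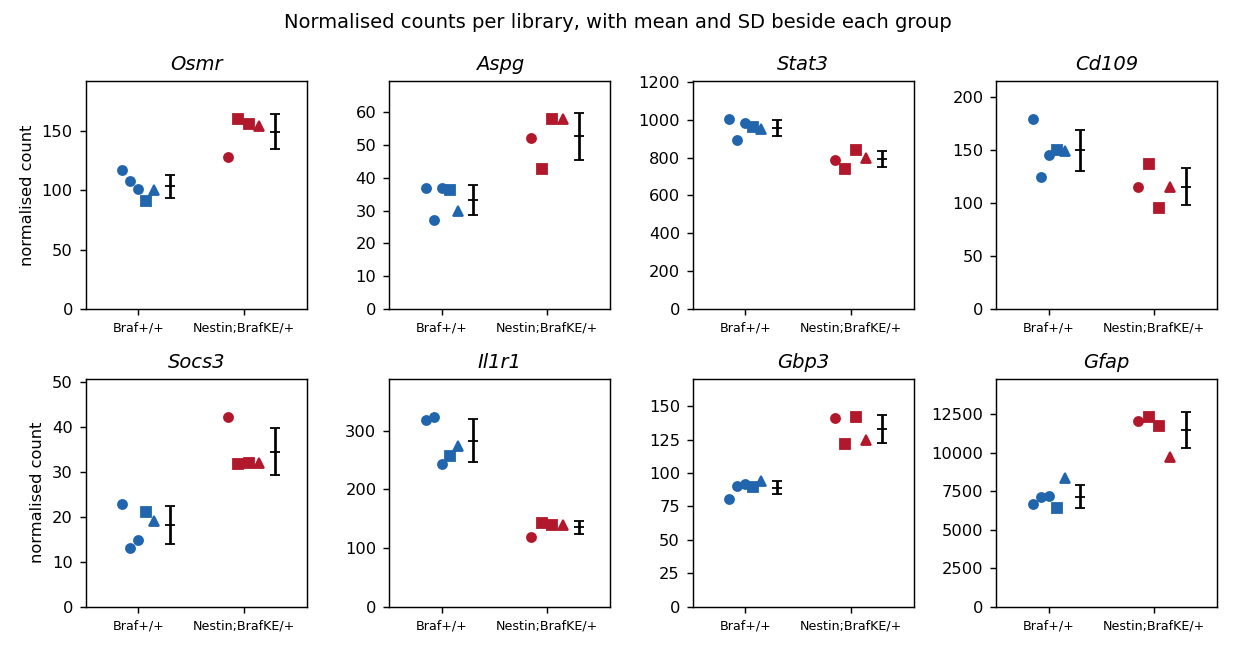
Normalised counts of 8 genes in each library (circles series A, squares series B, triangles series C), with the mean and SD of each genotype as a black bar at its right; every vertical axis starts at 0. Osmr, Aspg, Socs3, Gbp3 and Gfap are higher, and Stat3 and Il1r1 lower, in all 4 Nestin;BrafKE/+ libraries (red) than in all 5 Braf+/+ libraries (blue), while Cd109 overlaps.

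Among the A1 genes 0 of 8 passed the threshold by limma, 0 of 8 had an unadjusted p under 0.05, and 0 of 8 separated the groups. The interferon-inducible GTPase Gbp2 was 0.31 higher on the log2 scale (SE 0.19, adjusted p = 0.418), with 82.8 ± 10.8 (SD, n = 4) in mutants and 66.9 ± 10.3 (SD, n = 5) in controls. In series A and B it was higher in mutants (0.36 and 0.51), and in C it was -0.04. Iigp1, another such GTPase, was between 42.9 and 47.2 in mutants and between 31.9 and 43.7 in controls (log2 fold change 0.19, SE 0.19). Serping1, the C1 inhibitor of the complement cascade, measured 144, 213, 133 and 147 in mutants and 119, 195, 98.6, 110 and 137 in controls. Mutant replicate 2 and control replicate 2 were its highest libraries, and the log2 fold change was 0.28 (SE 0.23, adjusted p = 0.554).

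The extracellular matrix gene Fbln5, which encodes fibulin-5, had 105 ± 8.47 (SD, n = 4) against 82.9 ± 21.2 (SD, n = 5), or 0.37 on the log2 scale (SE 0.22, adjusted p = 0.405), which was above 0 in all 3 series. Ggta1, a galactosyltransferase, had a log2 fold change of 0.28 (SE 0.20), with 0.75, -0.02 and -0.04 in series A, B and C. The remaining 3 A1 members had lower means in mutants. The adhesion protein gene Amigo2, the A1 member with the highest counts, measured 471, 586, 507 and 523 in mutants and 665, 637, 538, 538 and 587 in controls. Mutant replicate 1 was the lowest and control replicate 1 the highest, and the log2 fold change was -0.18 (SE 0.10, adjusted p = 0.370).

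Srgn encodes serglycin, a proteoglycan of secretory granules that blood cells also make. It measured 101, 98.4, 78.9 and 83.8 in mutants and 99.4, 114, 97.6, 112 and 116 in controls, or -0.25 on the log2 scale (SE 0.15, adjusted p = 0.407), with the same sign in the 3 series. Ugt1a6a, a glucuronosyltransferase, had a log2 fold change of -0.08 (SE 0.32). It shares exons and strand with other genes of the Ugt1a cluster, so its reads cannot be assigned with certainty. Predicted genes overlap Ggta1, Srgn and the A2 member Clcf1 on the same strand.

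The A2 genes had estimates in both directions, and the lowest p of all members belonged here. Stat3 (ENSMUSG00000004040, chromosome 11, 100775924 to 100830450, minus strand) encodes the transcription factor that carries signals of the interleukin-6 family in astrocytes. Its counts were 786, 739, 841 and 796 in mutants and 1003, 892, 981, 960 and 950 in controls. Every mutant was below every control, and the nearest pair was mutant replicate 3 and control replicate 2. The log2 fold change was -0.28 (SE 0.07, 95% interval -0.43 to -0.13), with an unadjusted p of 0.00188 and an adjusted p of 0.0571. Series A, B and C gave -0.28, -0.28 and -0.26, and the exact permutation p was the smallest the splits allow, 0.00794 for all libraries and 0.0417 inside series.

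Cd109, a membrane-anchored co-receptor that restrains transforming growth factor beta signalling, was lower on the same pattern. It measured 115, 137, 94.8 and 115 in mutants and 179, 124, 145, 150 and 149 in controls. Control replicate 2 lay among the mutants, with mutant replicate 2 above it, so the groups overlapped. The log2 fold change was -0.37 (SE 0.16, 95% interval -0.72 to -0.02, adjusted p = 0.247), with -0.35, -0.39 and -0.38 in series A, B and C. The exact permutation p was 0.0317 for all libraries and 0.0833 inside series. B3gnt5, which makes a glycolipid core, had 17.1, 21.9, 18 and 24.9 in mutants and 14.9, 17, 13.9, 15.1 and 11 in controls. The groups did not overlap, but mutant replicate 1 and control replicate 2 were nearly equal, and the log2 fold change was 0.48 (SE 0.29, adjusted p = 0.411).

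Tm4sf1, a tetraspanin-like membrane protein also known from endothelium, measured 256, 370, 295 and 350 in mutants and 301, 275, 302, 248 and 245 in controls, or 0.20 on the log2 scale (SE 0.14, adjusted p = 0.474). S100a10, the partner of annexin A2, measured 281, 273, 247 and 275 in mutants and 245, 225, 273, 269 and 245 in controls, or 0.10 on the log2 scale (SE 0.10, adjusted p = 0.656). The genotypes overlapped in both genes. Emp1, an epithelial membrane protein, had 65.1 ± 10.9 (SD, n = 4) against 52.9 ± 9.51 (SD, n = 5) and a log2 fold change of 0.30 (SE 0.21).

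The other 3 A2 genes had low counts and wide errors. Sphk1, the kinase that makes sphingosine 1-phosphate, had the largest estimate of the 25 members, 0.76, with an SE of 0.47. Series A, B and C gave -0.64, 1.48 and 1.92, and its counts ran from 16.1 to 55.6 in mutants and from 13 to 40 in controls. The cytokine gene Clcf1, whose product signals through the ciliary neurotrophic factor receptor, had -0.06 (SE 0.36), with -0.84, 0.07 and 0.93 in series A, B and C. Ptx3, a secreted pentraxin, had -0.31 (SE 0.39) at 8.73 ± 1.46 against 11.8 ± 5.30.

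**Figure D3:**
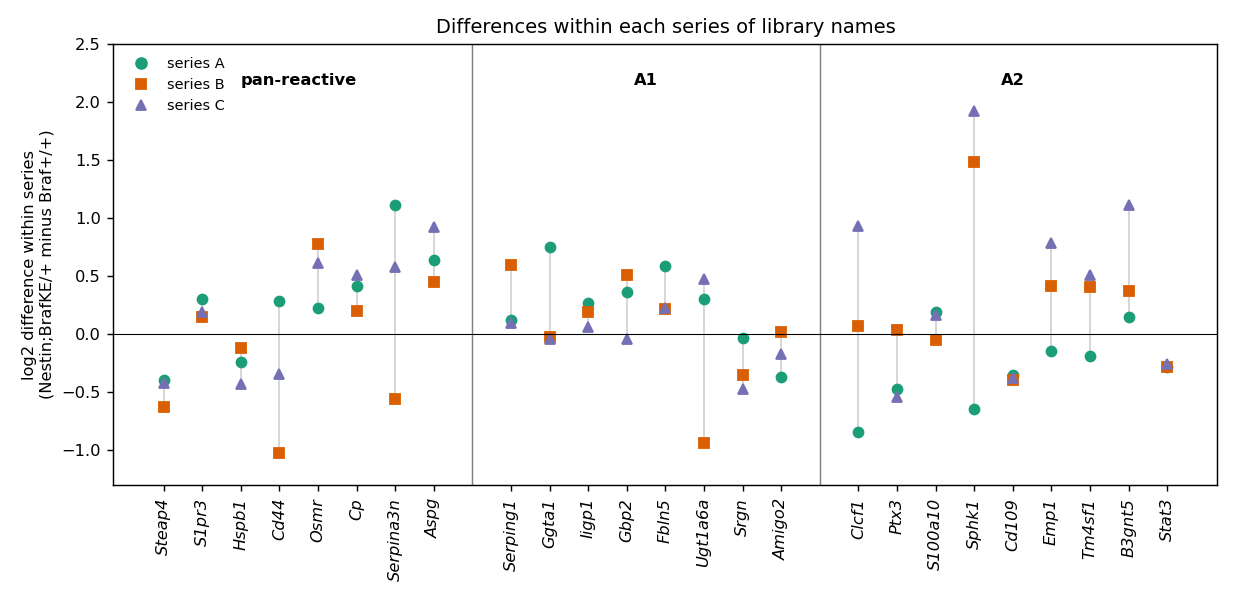
The log2 difference between the genotype means within each series of library names (green circles A, orange squares B, purple triangles C), for the 25 members tested; a grey line joins the 3 values of a gene. The 3 values coincide near -0.28 for Stat3 and lie between -0.39 and -0.35 for Cd109, whereas those of Sphk1 run from -0.64 to 1.92.

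The published pan-reactive, A1 and A2 lists hold 8 further genes, and 1 of them passed the threshold, where 2.88% of all genes passed. The groups did not overlap in 3 of the 8 (37.5%, against 15.7% of all genes). An unadjusted p under 0.05 was found for 3 (37.5%, against 18.5%). The filament gene Gfap, which marks astrocytes in most brain regions, rose in mutants. It had 11468 ± 1175 normalised counts (SD, n = 4) against 7149 ± 747 (SD, n = 5), or 0.68 on the log2 scale with an SE of 0.10 and an adjusted p of 0.00576. The call was lost without mutant replicate 1 (adjusted p = 0.0742) or control replicate 4 (adjusted p = 0.0525), and the study named Gfap and H2-D1 from these libraries, so neither is independent evidence. The class I MHC genes H2-D1 (log2 fold change 0.41, SE 0.10, adjusted p = 0.0637) and H2-T23 (0.34, SE 0.11, adjusted p = 0.15) were higher in all 4 mutants than in all 5 controls. Genes of this family are alike in sequence, so counts may be shared among them. The log2 fold changes of the other 5 were 0.20 for vimentin (Vim), 0.05 for Fkbp5, 0.20 for Psmb8, 0.06 for Ptgs2 and -0.05 for Cd14, with an adjusted p of 0.412 for Vim and higher for the rest.

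**Figure D4:**
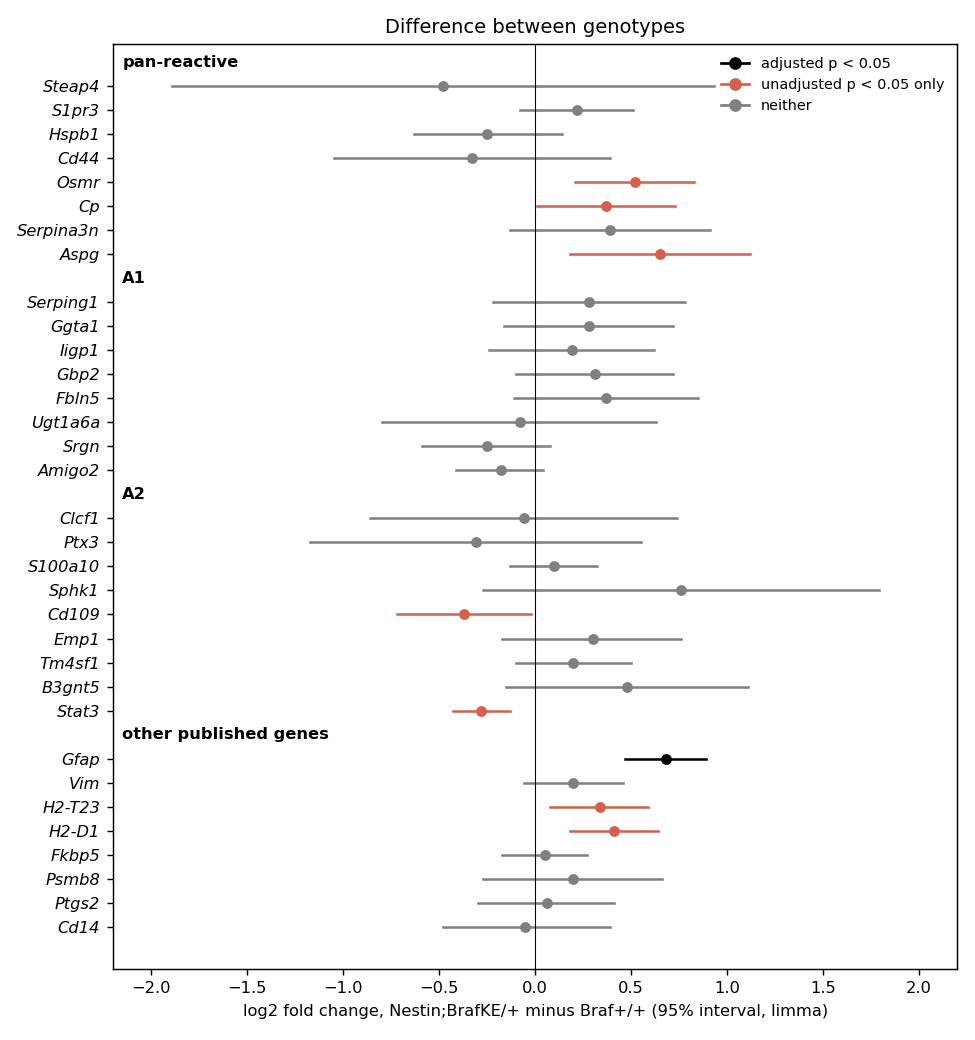
Log2 fold change of Nestin;BrafKE/+ over Braf+/+ with its 95% interval from limma, for the 25 members by subclass and the 8 further genes of the published lists; black marks an adjusted p under 0.05, red an unadjusted p under 0.05 only, and grey neither. Gfap at 0.68 is the only black point, and the red points are Osmr, Cp, Aspg, H2-T23 and H2-D1 to the right of 0 and Cd109 and Stat3 to its left.

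Osmr and Stat3, the members with the lowest p, belong to one pathway, and its genes were divided. A list of 21 genes of the interleukin-6 family and the JAK/STAT pathway included Osmr, Stat3 and the member Clcf1. Of the 21, 19 were tested (Il6 and Osm had no row), 10 were higher and 9 lower, and 0 passed by limma. An unadjusted p under 0.05 was found for 5 (26.3%, against 18.5% of all genes), Osmr and Stat3 included. The median log2 fold change was 0.01. Socs3, the feedback inhibitor that STAT3 induces, measured 42.2, 31.8, 31.9 and 31.9 in mutants and 22.9, 13, 14.9, 21.1 and 19 in controls. All mutants were above all controls (log2 fold change 0.90, SE 0.27, adjusted p = 0.113). Socs1, of the same inhibitor family, was lower in all mutants than in all controls (-0.42, SE 0.28, adjusted p = 0.464), at low counts. In the list the groups did not overlap in 4 genes (21.1%, against 15.7% of all genes), 2 higher and 2 lower. The interleukin-6 receptor gene Il6ra had -0.45 (SE 0.13, adjusted p = 0.101), and the shared subunit Il6st 0.15 (SE 0.07, adjusted p = 0.306).

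The inducers of the A1 state and their receptors contained 1 gene past the threshold, and it fell, where 2.88% of all genes passed. Of 14 such genes, 12 were tested (Il1b and Tnf had no row), 8 were higher and 4 lower, with a median of 0.06. An unadjusted p under 0.05 was found for 4 (33.3%, against 18.5% of all genes), 3 higher and 1 lower. The groups did not overlap in 1 (8.33%, against 15.7%). Il1r1, the signalling receptor for interleukin-1, measured 119, 143, 140 and 139 in mutants and 318, 324, 244, 257 and 274 in controls. Every mutant lay far below every control, and the log2 fold change was -1.06 (SE 0.13, 95% interval -1.34 to -0.77, adjusted p = 0.00324). Series A, B and C gave -1.29, -0.86 and -0.98. With single libraries left out it passed in 8 of 9 fits, and its highest adjusted p was 0.0534. The predicted gene Gm38070 overlaps Il1r1 on the same strand. In the mouse hippocampus Il1r1 is also known from dentate granule neurons. Of 3 markers of those neurons, Dsp fell (log2 fold change -0.78, adjusted p = 0.0106), while Prox1 was at -0.05 (adjusted p = 0.692) and C1ql2 at 0.04 (adjusted p = 0.925).

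On the side of the inducers, the microglial complement genes C1qa, C1qb and C1qc had log2 fold changes of 0.23 (SE 0.12), 0.28 (SE 0.09) and 0.31 (SE 0.12). Their adjusted p values by limma were 0.332, 0.147 and 0.203. The tumour necrosis factor receptor gene Tnfrsf1a had 0.32 (SE 0.13, adjusted p = 0.215). C1qa was above 0 in all 3 series, and C1qb, C1qc and Tnfrsf1a were above 0 in series A and B and below it in C.

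A list of other interferon-responsive genes, the class of the A1 members Gbp2 and Iigp1, had 0 of 13 past the threshold by limma. Of the 13 estimates 12 were above 0, where 50.1% of all genes were. A median of 0.25 and 4 unadjusted p values under 0.05 (30.8%, against 18.5% of all genes) described the list. All 4 were higher in mutants, and 8.86% of all genes had such a p on the higher side. Gbp3 measured between 122 and 142 in mutants and between 80.5 and 94.1 in controls, or 0.56 higher on the log2 scale (SE 0.13, adjusted p = 0.051). Ifit3 had 0.67 (SE 0.17, adjusted p = 0.0635), with 1.00, 0.76 and 0.06 in series A, B and C.

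Members are expressed by astrocytes but several also by other cells, so the levels of cell-type markers are set beside them. Of 12 astrocyte identity genes, 10 were higher and 3 passed, Aldoc (0.35, adjusted p = 0.0106), S100b (0.36, adjusted p = 0.0253) and Atp1b2 (0.27, adjusted p = 0.0208). With single libraries left out, Aldoc passed in 7 of 9 fits (highest adjusted p 0.0742), S100b in 4 (0.158) and Atp1b2 in 4 (0.120), and with the choroid plexus covariate S100b did not pass (0.0533). The study named Aldoc and S100b from these libraries, among genes linked to reactive astrocytes, so neither is independent evidence. Of all genes tested, 2.88% passed. In the list, 9 of 12 genes had an unadjusted p under 0.05 (75%, against 18.5% of all genes). The groups did not overlap in 6 (50%, against 15.7%). The list's median log2 fold change was 0.23. The list's level, a mean of its genes' log2 values after each gene was centred on its own mean, was 0.09 to 0.15 in mutants and -0.10 to -0.07 in controls, and its summed counts were 146980 to 161127 against 138350 to 150222. The astrocyte identity genes had a median near those of the pan-reactive and A1 members, and the levels of pan-reactive members (-0.04 to 0.19 in mutants, -0.39 to 0.28 in controls) and A1 members (-0.06 to 0.17, -0.26 to 0.22) overlapped between genotypes. In bulk tissue, more or fewer cells of a type and more or less RNA per cell cannot be told apart.

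The other marker lists had medians of 0.12 for microglia, 0.04 for endothelium, 0.13 for mural cells, 0.26 for meningeal fibroblasts and 0.42 for blood. The lowest p in them belonged to Cx3cr1 (0.22, adjusted p = 0.0801) of microglia, Itm2a (-0.27, 0.129) of endothelium, Pdgfrb (0.28, 0.0944) of mural cells and the hemoglobin gene Hbb-bs (0.47, 0.0940) of blood. None of the genes of these lists passed except collagen Col1a1 of the meningeal list (0.96, SE 0.18, adjusted p = 0.0214, passing in 6 of 9 fits with single libraries left out). An unadjusted p under 0.05 was found for 3 of 10 microglial, 1 of 10 endothelial and 2 of 8 mural genes. It was found for 2 of 10 meningeal and 4 of 6 blood genes, against 18.5% of all genes tested. The 4 blood genes were all hemoglobin genes. Control replicate 2, first in choroid plexus level (2.71), was also the highest control for pan-reactive (0.28), A1 (0.22), mural (0.35) and meningeal genes (0.59). Without it, 7 members (28%) had an unadjusted p under 0.05, against 17% of all genes in the same fit, and 0 passed. With the choroid plexus covariate 9 members (36%) had one, against 17.2% of all genes, and 0 passed. The part of these cells in the members' values was not tested further.

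**Figure D5:**
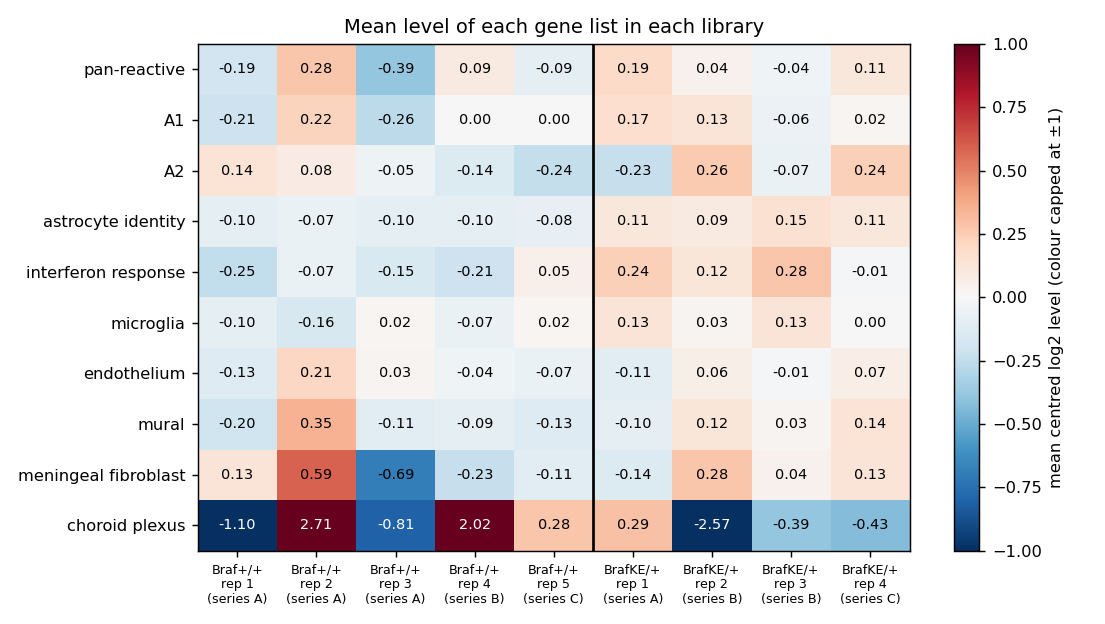
Mean level of each gene list in each library, as the average of its genes' log2 values, each centred on that gene's mean over the 9 libraries, with Braf+/+ left and Nestin;BrafKE/+ right of the black line; colours are capped at 1 either way. Astrocyte identity genes are above 0 in all 4 mutants and below 0 in all 5 controls, the 3 subclasses are mixed, and the choroid plexus list runs from -2.57 to 2.71.

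The start regions of the members were read for 3 short motifs, of STAT dimers (GAS, TTCNNNGAA), of interferon-responsive factors (ISRE, GAAA, then any 2 bases, then GAAA) and of AP-1 (TGANTCA), a factor downstream of ERK. RefSeq windows of the GRCm38 assembly, from 250 bases before to 50 after a start, were at hand for 25 of the 30 members and 27025 genes, and both strands were searched. Cd109, Clcf1, Iigp1, S100a10 and Serping1 were not matched. A GAS match was found in 5 members (20%, against 9.55% of all genes), in Emp1, Sphk1, Steap4, Tgm1 and Ugt1a6a. An ISRE match was found in 6 (24%, against 3.99%), in Cxcl10, Fbln5, Gbp2, Srgn, Tgm1 and Tm4sf1. An AP-1 match was found in 7 (28%, against 8.97%), in Cp, Cxcl10, Emp1, Gbp2, Osmr, Sphk1 and Ugt1a6a. The AP-1 letters were loose, with any base in the middle, where the usual site has C or G. The matches of Cp, Osmr and Ugt1a6a read TGATTCA and are not that usual site. A GAS and an AP-1 match overlapped in Emp1 and in Ugt1a6a. The members tested that hold an ISRE match had log2 fold changes of 0.37 (Fbln5), 0.31 (Gbp2), -0.25 (Srgn) and 0.20 (Tm4sf1), and those with a GAS match 0.30 (Emp1), 0.76 (Sphk1), -0.48 (Steap4) and -0.08 (Ugt1a6a). Those with an AP-1 match had 0.37 (Cp), 0.30 (Emp1), 0.31 (Gbp2), 0.52 (Osmr), 0.76 (Sphk1) and -0.08 (Ugt1a6a). The estimates below 0 were those of Srgn (SE 0.15), Steap4 (SE 0.64) and Ugt1a6a (SE 0.32). Whether a motif goes with a direction was not tested. A match is a string of letters and not a bound site.

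Osmr and Stat3 are given as the members with the lowest p, in opposite directions, though neither passed the threshold, and Gbp2 as an A1 member with 2 motifs. Each sequence is the 250 bases before the RefSeq start, 5′ to 3′ on the gene's strand, located in GRCm39 by exact match, with matches to the motifs in capitals. Gbp2 holds TGAGTCA (AP-1) and TTTCACTTTC (ISRE, read on the other strand). No motif match lies in the Osmr or Stat3 stretch, and the loose AP-1 match of Osmr (TGATTCA) lies just after its RefSeq start. The RefSeq starts differ from the Gencode ends of these genes. By Gencode, the whole Osmr stretch and part of the Stat3 and Gbp2 stretches lie inside the genes.
Osmr, chr15:6903795-6904044, minus strand: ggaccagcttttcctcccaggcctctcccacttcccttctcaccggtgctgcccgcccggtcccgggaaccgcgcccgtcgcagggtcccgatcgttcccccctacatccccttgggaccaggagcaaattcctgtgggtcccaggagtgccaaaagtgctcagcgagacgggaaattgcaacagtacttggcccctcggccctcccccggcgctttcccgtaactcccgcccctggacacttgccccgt
Stat3, chr11:100830367-100830616, minus strand: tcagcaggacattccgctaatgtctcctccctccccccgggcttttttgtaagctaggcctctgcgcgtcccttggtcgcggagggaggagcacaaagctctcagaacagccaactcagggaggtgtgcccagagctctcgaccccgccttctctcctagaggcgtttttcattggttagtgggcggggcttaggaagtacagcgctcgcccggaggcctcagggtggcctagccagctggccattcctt
Gbp2, chr3:142326174-142326423, plus strand: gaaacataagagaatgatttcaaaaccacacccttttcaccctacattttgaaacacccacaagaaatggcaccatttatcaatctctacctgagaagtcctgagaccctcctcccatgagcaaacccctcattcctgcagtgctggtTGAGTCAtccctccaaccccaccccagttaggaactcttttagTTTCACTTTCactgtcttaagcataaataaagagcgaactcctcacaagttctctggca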

How the data were processed

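Stranded mRNA libraries were prepared from hippocampal RNA. Per the study's methods, the authors used Trim Galore for trimming, STAR with GRCm39 for alignment and Salmon for quantification, then adjusted for unnamed batches and normalised with DESeq2. The deposited values are a signal in normalised counts. In every library 100% of them were whole multiples of 1 step (tolerance 0.01), yet they are batch-adjusted and not reads, so no count model was used, depth is unknown and error was taken from the spread between libraries, 1 per animal.

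The fit used all 9 libraries in limma 3.58.1 (R 4.3.3, lmFit and trended eBayes) on log2(value + 1), with genotype and series as terms, for genes with a mean of at least 10. Tests were two-sided, with Benjamini-Hochberg adjustment over all genes. Single values were also tested by exact permutation. The steps were tested on simulated data. Alternatives were other pseudocounts (0.5, 8) and filters, quantile normalisation, TMM factors, 4 name prefixes or no term for series, a replicate block, array weights, robust eBayes and the omission of each library.

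The members and all lists were chosen with earlier results of these data known. Named are all members, the 8 further published genes and, of the other lists, genes past the threshold or with the lowest p, with values per library for members with an unadjusted p under 0.05 and the 3 with the highest counts in each subclass. Il6ra, Il6st, Socs1, Socs3, Spink8, C1qa, C1qb, C1qc and Tnfrsf1a were added after their values were seen. So were the per-library values of B3gnt5, Socs3 and Il1r1. Coordinates and overlaps are from Gencode on GRCm39. Figures were drawn with matplotlib 3.10.9. 1 gene of the lists is not reported here.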

Additional observations from a re-analysis of the deposited data

Results flagged for a closer look

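In 6 of 84 groups of values 1 library lay far from the others of its genotype by Dixon's criterion, where chance gives 4.2 (about 1 in 20). Among controls, replicate 2 had 45.0 normalised counts of Steap4, against 2.99 to 12.1 in the other controls. Among mutants, replicate 2 had the lowest Steap4 (6.95, against 7.98 to 8.03) and the highest Ptx3 (10.9, against 7.98 to 8.03). Mutant replicate 1 had the highest S1pr3 (212, against 200 and 201), the highest Fbln5 (117, against 99.7 to 102) and the lowest H2-T23 (159, against 168 and 169). In the 5 mutant cases the other 3 mutants were nearly equal, so the distance in counts is small.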

How the results depend on the processing

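Other pseudocounts, filters, TMM factors, quantile normalisation and robust eBayes left 0 members past the threshold and 4 or 5 with an unadjusted p under 0.05, and array weights left 0 and 5. Of 518 values of members under the alternatives, 12 changed sign and 6 passed the threshold. Without the series term 2260 genes passed in place of 466, with 3 members (Osmr, adjusted p = 0.00769, Aspg, 0.0192, and Stat3, 0.00513), 9 members with an unadjusted p under 0.05 and 3 of the 8 further published genes. With 4 name prefixes 165 genes passed, and with array weights 258.

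Replicate numbers do not pair the libraries: the correlation of deviations between same-numbered libraries was -0.39, -0.0779, 0.0686 and 0.415. With the replicate block 1405 genes passed, with 2 members (Aspg, adjusted p = 0.0492, and Stat3, 0.0199) and 2 of the further published genes.

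Leaving out single libraries gave 42 (without mutant replicate 1) to 371 genes, 0 to 1 members past the threshold (Serpina3n, 0.90, without control replicate 4), 2 to 7 members with an unadjusted p under 0.05, 0 to 2 further published genes, and an A2 median of 0.07 to 0.44. The lowest of those member counts, 2, was found without mutant replicate 4 or control replicate 5. The count of genes was 169 without mutant replicate 3, 278 without control replicate 1 and 97 without control replicate 4.

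Some estimates near 0 or resting on few libraries changed sign. Clcf1 became 0.12 with 4 prefixes. Without mutant replicate 1 Serpina3n was -0.07, Ggta1 -0.03, Clcf1 0.44 and Ptgs2 -0.18. Fkbp5 was -0.02 without mutant replicate 2. Ugt1a6a and Clcf1 were 0.02 and 0.03 without mutant replicate 3, and again 0.02 and 0.03 without control replicate 2. Without control replicate 4 Cd44 was 0.04, Ugt1a6a 0.37, Fkbp5 -0.09 and Cd14 0.05. With the choroid plexus covariate, chosen after seeing the data, 9 members had an unadjusted p under 0.05, and Steap4 became 0.18, Ugt1a6a 0.28, Fkbp5 -0.04 and Ptgs2 -0.01. With single libraries left out, the far end of these ranges was -0.73 for Cd44, 0.90 for Serpina3n, 0.44 for Ggta1, -0.33 for Ugt1a6a, -0.41 for Clcf1, 0.21 for Fkbp5, 0.23 for Ptgs2 and -0.12 for Cd14. The cause of these changes was not tested. With 4 and 5 libraries, median SE was 0.20 for members, which limits what differences could be detected.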

Other observations

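2 lists of cells that also carry the mutant allele held genes past the threshold by limma. Of 9 oligodendrocyte genes, 9 were higher in mutants and 4 rose, the myelin genes Mog (log2 fold change 0.53), Mag (0.41) and Mobp (0.58) and the tight junction gene Cldn11 (0.39), and the list's median was 0.32, where 2.88% of all genes passed. With single libraries left out, Mog passed in 4 of 9 fits (highest adjusted p 0.183), Mag in 1 (0.253), Mobp in 5 (0.176) and Cldn11 in 6 (0.138). Without control replicate 2, or with the choroid plexus covariate, 2 of the 9 passed, Mobp and Cldn11. Of 10 hippocampal neuron genes, 7 were higher, and 3 passed in both directions. Wfs1 (0.61, SE 0.05, adjusted p = 0.000371) and Fibcd1 (0.40, SE 0.07, adjusted p = 0.0182), known from CA1 pyramidal neurons, rose. Spink8, also known from CA1, was at 0.08 (adjusted p = 0.726). The dentate granule cell gene Dsp fell, while Prox1 and C1ql2 of the same cells were at -0.05 and 0.04. With single libraries left out, Wfs1 passed in 9 of 9 fits, Dsp in 7 and Fibcd1 in 6. The list's median was 0.09.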
